A study of Mus musculus with 8 samples.

Results

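The genes described here encode the machinery with which the endoplasmic reticulum (ER) takes in, folds and checks proteins that a cell will secrete. They were taken by symbol from a list of 42 genes, and all 42 were found, each on 1 of the 49585 rows that every library holds. The libraries are bulk mRNA sequencing of whole pituitary from old (18 to 24 months) and young (2 to 3 months) wild-type C57BL/6 mice, 4 libraries per age, and it is not stated whether every library stems from its own mouse. Whole pituitary averages all cell types of the gland, so fewer cells of a type and less RNA per cell cannot be told apart. The values are FPKM (fragments per kilobase of exon, relative to library size), and the libraries held 16098530 to 19272104 fragments in old and 15042321 to 20429604 in young pituitary. All 42 members passed the filter of a mean of at least 0.1 FPKM. Of the 31 members whose fragments could be computed back from the FPKM, the lowest count in any library was 240.

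A secreted protein such as growth hormone or prolactin enters the ER through the Sec61 channel while it is being made, loses its signal peptide to signal peptidase, and is then held by chaperones and given its disulfide bonds. Proteins that do not fold are returned to the cytosol and destroyed, a process called ER-associated degradation. When unfolded proteins build up, the sensors Ern1 (IRE1), Atf6 and Eif2ak3 (PERK) start the unfolded protein response. Through Atf6 and the spliced form of Xbp1, this response raises transcription of chaperone and degradation genes. The pituitary is a gland of professional secretory cells. The marker genes of hormone-secreting cells, 9 in all, summed to 101782 to 130056 FPKM in old and 136003 to 160309 FPKM in young libraries. Most of this sum was Prl, with means of 83140 FPKM in old and 82116 FPKM in young pituitary, and Gh, with 24327 and 62323 FPKM. Of the 9 genes, Gh and Lhb fell with age by the test used below. In 6 of the 9 the log2 fold change was above 0, with a median of 0.07 over the 9.

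Many genes of the unfolded protein response carry a short DNA motif near their start, the ER stress response element, in which CCAAT and CCACG are separated by 9 bases of any kind. It was searched for on both strands of the RefSeq promoters of GRCm38.p6, which run from 250 bases before to 50 after each gene start and were held for 34 of the 42 members. The motif stood in 8 of these 34 members (23.5%), against 37 of 27025 genes in the whole table (0.137%). The sites are shown because their carriers include Derl3 and Creld2, which varied much between libraries. Each line gives a site with 20 bases on either side, read in the direction in which CCAAT comes first, with CCAAT and CCACG in capitals.
Hspa5, chr2:34772005-34772063, + strand, from 65 to 47 bases before the start: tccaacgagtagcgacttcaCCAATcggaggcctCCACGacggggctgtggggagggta
Hsp90b1, chr10:86705618-86705676, - strand, from 212 to 194 bases before the start: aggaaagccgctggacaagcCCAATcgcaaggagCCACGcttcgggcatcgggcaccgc
Hsp90b1, chr10:86705513-86705571, + strand, from 107 to 89 bases before the start: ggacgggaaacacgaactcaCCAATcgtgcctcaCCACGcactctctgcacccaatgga
Calr, chr8:84847055-84847113, + strand, from 162 to 144 bases before the start: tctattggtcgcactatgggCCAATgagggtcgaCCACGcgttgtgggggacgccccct
Canx, chr11:50325780-50325838, - strand, from 145 to 127 bases before the start: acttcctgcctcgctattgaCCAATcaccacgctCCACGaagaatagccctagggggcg
Pdia6, chr12:17266471-17266529, + strand, from 98 to 80 bases before the start: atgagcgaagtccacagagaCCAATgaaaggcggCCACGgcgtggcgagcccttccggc
Creld2, chr15:88819500-88819558, - strand, from 126 to 108 bases before the start: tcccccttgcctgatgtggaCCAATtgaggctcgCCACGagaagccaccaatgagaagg
Derl3, chr10:75893222-75893280, - strand, from 156 to 138 bases before the start: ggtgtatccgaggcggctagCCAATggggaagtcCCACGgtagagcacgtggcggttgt
Syvn1, chr19:6046512-6046570, + strand, from 44 to 26 bases before the start: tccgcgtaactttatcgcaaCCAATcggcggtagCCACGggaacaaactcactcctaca

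Hsp90b1 carried a pair of sites on opposite strands. Herpud1, which tethers the degradation complex, carried a site of the second form of the element, in which 1 base separates ATTGG from CCACG (again in capitals). It lies at chr8:94386357-94386407 on the + strand, from 52 to 42 bases before the start: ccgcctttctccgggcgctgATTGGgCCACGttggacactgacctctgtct
This second form was in 1 of the 34 members (2.94%) and in 12 of all genes of the table (0.0444%). The CCACG part alone, which both elements contain, was in 26 members (76.5%) and in 35.5% of all genes. TGACGTGG, a motif that XBP1 can bind, was in 1 member, Txndc5 (2.94%, against 0.714% of all genes). TGATGNAAN, the form bound by ATF4, was in 2 members (5.88%, against 4.50% of all genes). No window was held for Hyou1, Sil1, Manf, Atf6, Derl1, Sec61a1, Ssr2 and Sec11c. A match is a description of the sequence and not evidence of binding in these glands.

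The levels of the members differed widely, with chaperones and isomerases at the top. The 5 highest were the isomerase Pdia3, the chaperones Hsp90b1, Hspa5 and Calr, and the isomerase P4hb. The lowest were Edem1 and Derl2, both of the degradation machinery. The degradation genes stayed below the chaperones as a group. The 9 of them summed to 147 ± 10.4 FPKM in old and 132 ± 14.3 FPKM in young pituitary, against 583 ± 34.4 and 467 ± 84.4 FPKM for the 6 HSP70 and HSP90 chaperones and helpers (SD, n = 4 each). Over all 42 members the sum was 2225 ± 114 FPKM in old and 1877 ± 260 FPKM in young pituitary (SD, n = 4 each). The old sums ran from 2124 to 2350 FPKM and the young ones from 1552 to 2172 FPKM, so the ages overlapped, and the young libraries spread more widely.

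**Figure D1:**
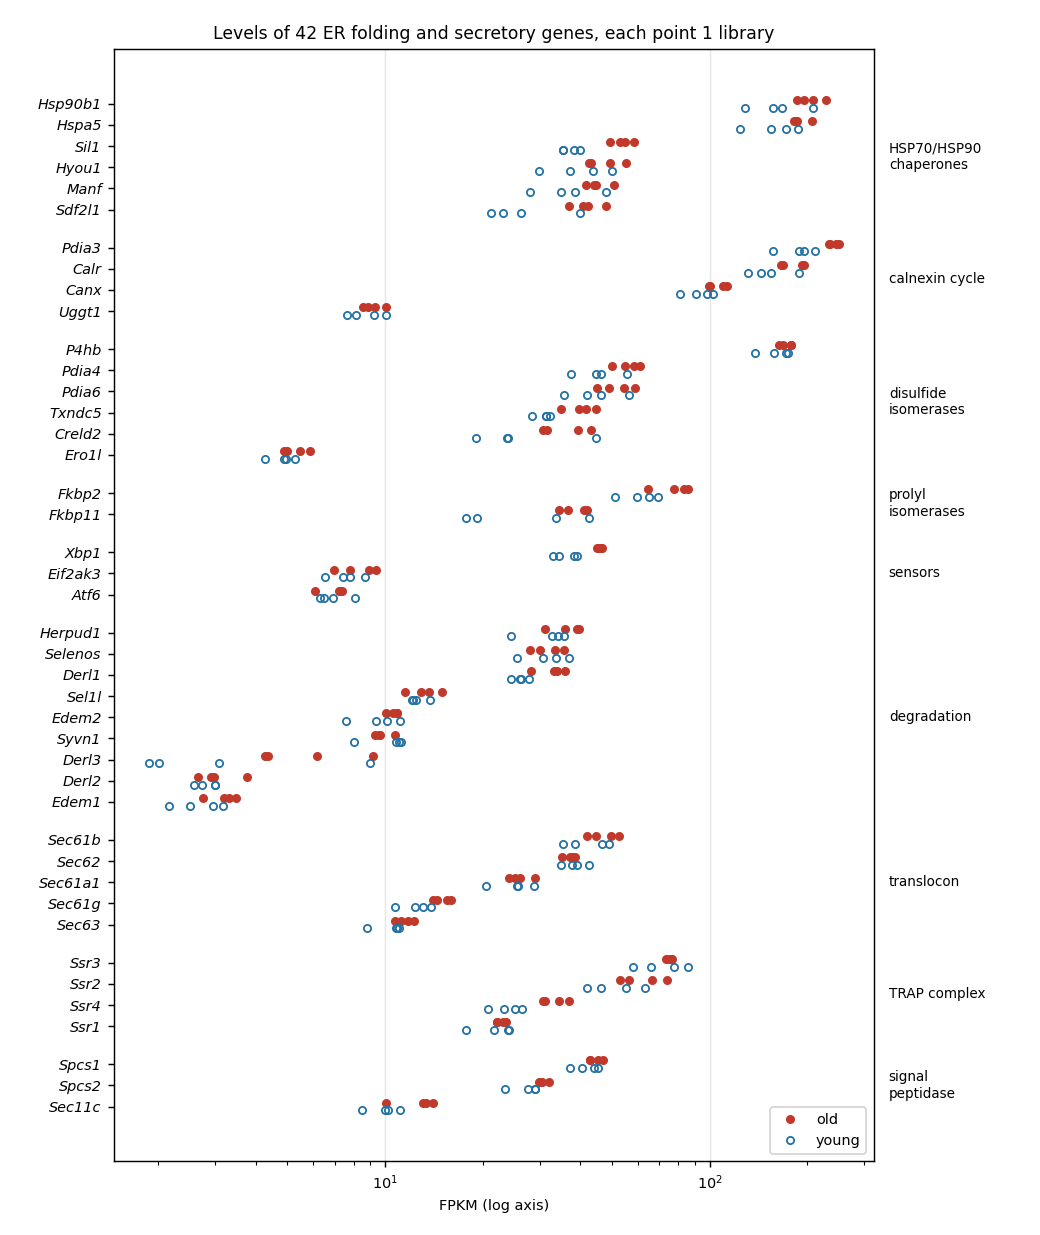
FPKM of the 42 members in each library, on a log axis, grouped by role. Filled points are the 4 old libraries, drawn above the open points of the 4 young libraries. Pdia3, Hsp90b1, Hspa5, Calr and P4hb lie highest, and for Sil1 and Xbp1 every old point lies right of every young one.

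The ages were set against each other by limma, on log2(FPKM + 0.1), with p-values adjusted over all 23498 genes tested (Benjamini-Hochberg, threshold 0.05). Of the 42 members, 1 rose (2.38%, against 1.86% of all genes) and 0 fell (against 0.472% of all genes). At an unadjusted p under 0.05, 10 members were higher (23.8%, against 18% of all genes) and 0 were lower (against 3.79%). The member that rose was Sil1. In 40 members the log2 fold change was above 0 (95.2%, against 70% of all genes), and its median was 0.22 over the members and 0.15 over all genes. FPKM are scaled to the whole library, of which the hormone genes took less in old pituitary (9.98 ± 1.11%) than in young (13.1 ± 0.971%; SD, n = 4 each). Of the hormone genes, Gh took 1.75 to 2.41% of old and 4.96 to 6.04% of young libraries. Prl took 6.74 to 8.80% of old and 6.72 to 7.64% of young libraries. The ribosomal RNA repeat genes Rn18s-rs5, Gm42418 and AY036118 took a larger share than the hormone genes, 35.5 ± 1.89% in old and 37.2 ± 2.94% in young pituitary (SD, n = 4 each). Rescaling each library by the median of its ratios to a common reference (median-of-ratios scaling) brought the median over all genes to 0.01 and that of the members to 0.07. Then 27 of 42 members lay above 0 (64.3%, against 51.1% of all genes), 2 were higher and 1 was lower at an unadjusted p under 0.05 (8.75% and 8.49% of all genes), and 0 passed the adjusted test (1.84% of all genes did, 0.899% as higher and 0.937% as lower).

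**Figure D2:**
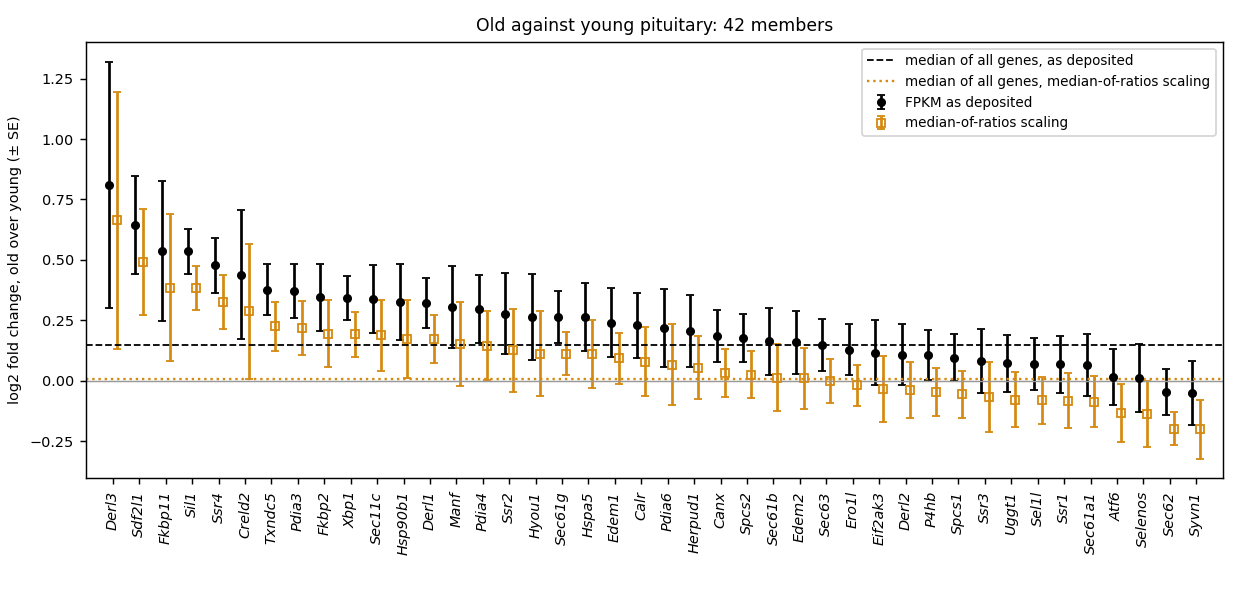
Log2 fold change of each member, old over young, on the log2(FPKM + 0.1) scale with its standard error from limma (n = 4 per age). Circles are the FPKM as deposited and squares the FPKM after median-of-ratios scaling. The dashed and dotted lines give the median of all genes under each, 0.15 and 0.01. Sil1 has a comparatively high value with a short bar, while Derl3, Fkbp11 and Creld2 have wide bars.

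Among the chaperones of the HSP70 and HSP90 families and their helpers, the helper Sil1 was the member with the clearest difference. SIL1 exchanges the nucleotide of the HSP70 chaperone BiP (Hspa5), which lets it release its client. In GRCm38 the gene spans 35266396 to 35499780 of chromosome 18. It was measured at 58.6, 53.2, 54.8 and 49.4 FPKM in old replicates 1 to 4, against 35.4, 35.3, 38.2 and 39.97 FPKM in young replicates 1 to 4. Every old library was above every young one, also after median-of-ratios scaling, which held for 1 member of 42 (2.38%, against 5.66% of all genes). The means were 54.0 ± 3.78 FPKM in old and 37.2 ± 2.27 FPKM in young pituitary (SD, n = 4 each), or 1.45-fold, with a log2 fold change of 0.53 with a standard error (SE) of 0.09 (adjusted p = 0.0375 by limma). The call was lost whichever of the 8 libraries was left out (adjusted p = 0.0543 to 0.102) and with median-of-ratios scaling (adjusted p = 0.0871). Over all alternatives its adjusted p from limma ran from 0.0114 to 0.171 and its log2 fold change from 0.38 to 0.58. Exons of antisense genes overlap 108 and 88 of its exon bases, and whether counting used strand is not stated.

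Hspa5, which encodes BiP, the central HSP70 chaperone of the ER, stood at 185, 182, 207 and 184 FPKM in old replicates 1 to 4, against 124, 188, 172 and 155 FPKM in young replicates 1 to 4. Young replicate 2 lay within the old range and young replicate 1 lay below all other libraries. The log2 fold change was 0.26 (adjusted p = 0.319 by limma, SE 0.14). Hsp90b1 (GRP94), the HSP90 chaperone of the ER, had the same order of young libraries, with 186, 195, 208 and 228 FPKM in old and 128, 209, 167 and 157 FPKM in young replicates 1 to 4 (log2 fold change 0.33, adjusted p = 0.279 by limma, SE 0.16). Of its exon bases, 415 are shared with 1810014B01Rik on the opposite strand (mean 144 FPKM). On the same strand, 133 are shared with Gm25745 (mean 471 FPKM) and 84 with Gm15344 (mean 266 FPKM), so the level of Hsp90b1 is uncertain. Sdf2l1, which helps to keep clients of BiP from aggregating, had 40.8, 37.0, 48.0 and 42.4 FPKM in old and 21.3, 39.8, 26.2 and 23.1 FPKM in young replicates 1 to 4. Young replicate 2 was again within the old range, and the other young libraries were well below it (log2 fold change 0.64, adjusted p = 0.133 by limma, SE 0.20). Without young replicate 2, Sdf2l1 passed the test (adjusted p = 0.0385, the lowest over its alternatives, which reached 0.451). Hyou1, a large HSP70 relative, and Manf, a co-factor of BiP that is also secreted, had log2 fold changes of 0.26 and 0.30 and adjusted p-values of 0.426 and 0.337.

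Calnexin (Canx) and calreticulin (Calr) are lectins that hold young glycoproteins, Pdia3 forms disulfide bonds in the proteins they hold, and Uggt1 marks glycoproteins that are still unfolded for another round. Pdia3 had the highest mean FPKM of all members, with 234, 234, 245 and 251 FPKM in old and 156, 211, 195 and 188 FPKM in young replicates 1 to 4. The ages did not overlap, and the log2 fold change was 0.37 (adjusted p = 0.122 by limma, SE 0.11). After median-of-ratios scaling it was 0.22 and the ages overlapped. Calr stood at 168, 166, 192 and 195 FPKM in old and 131, 189, 155 and 144 FPKM in young replicates 1 to 4 (log2 fold change 0.23, adjusted p = 0.359 by limma, SE 0.14). Canx was at 99.5 to 113 FPKM in old and 81.4 to 103 FPKM in young libraries. Uggt1, the lowest of the group, was at 8.54 to 10.1 FPKM in old and 7.65 to 10.1 FPKM in young libraries, with a log2 fold change of 0.07 (adjusted p = 0.755).

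Of the disulfide isomerases and oxidase other than Pdia3, P4hb, the founding protein disulfide isomerase, had the highest mean FPKM. It had 164, 168, 179 and 178 FPKM in old and 138, 174, 172 and 158 FPKM in young replicates 1 to 4, with overlapping ages and a log2 fold change of 0.11 (adjusted p = 0.587 by limma, SE 0.10) that was -0.05 after median-of-ratios scaling. Txndc5, an isomerase with thioredoxin-like domains, had the smallest p of this group. Its values were 41.8, 39.5, 44.6 and 34.9 FPKM in old and 28.4, 31.4, 31.4 and 32.3 FPKM in young replicates 1 to 4, without overlap (log2 fold change 0.38, adjusted p = 0.105 by limma, SE 0.11). It overlaps exons of Bmp6 and of an antisense gene on the other strand. Pdia4 and Pdia6 had log2 fold changes of 0.30 and 0.22 (adjusted p-values of 0.268 and 0.470). Ero1l, the oxidase that recharges the isomerases, was low, at 4.90 to 5.86 FPKM in old and 4.27 to 5.27 FPKM in young libraries. Creld2, which is induced by ER stress and has disulfide isomerase activity, is described with the most variable members below.

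The prolyl isomerases speed up the turning of peptide bonds before proline. Fkbp2 had 77.9, 64.6, 83.5 and 85.7 FPKM in old and 51.0, 69.4, 65.3 and 59.8 FPKM in young replicates 1 to 4. Only old replicate 2 lay within the young range (log2 fold change 0.35, adjusted p = 0.205 by limma, SE 0.14).

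Of the 3 genes of the sensors and their transcription factor, Xbp1 differed most between the ages. Its protein, made from an mRNA that IRE1 splices, is a main activator of genes for secretion, and FPKM over all exons do not tell the spliced from the unspliced form. The levels were 45.5, 46.3, 46.5 and 44.9 FPKM in old and 32.9, 39.1, 34.5 and 38.2 FPKM in young replicates 1 to 4. The old libraries had an SD of 0.767 FPKM and lay above every young one, and the log2 fold change was 0.34 (adjusted p = 0.0933 by limma, SE 0.09). Xbp1 passed the test with a pseudocount of 1, a minimum mean of 1 FPKM or a mean-variance trend (adjusted p = 0.0490, 0.0499 and 0.0392), and over all alternatives its adjusted p ran from 0.0392 to 0.461. The sensors themselves were low and close between the ages. Atf6 was at 6.99 ± 0.616 FPKM in old and 6.93 ± 0.8003 FPKM in young pituitary, and Eif2ak3 at 8.27 ± 1.11 and 7.61 ± 0.883 FPKM (SD, n = 4 each), with log2 fold changes of 0.01 (standard error 0.12) and 0.12 (standard error 0.14).

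In ER-associated degradation, the EDEM proteins trim sugars of proteins to be destroyed, the Derlins and Sel1l form part of the exit channel with the ubiquitin ligase Syvn1 (HRD1), and Selenos and Herpud1 join the complex. Derl1 had 33.2, 36.0, 33.9 and 28.2 FPKM in old and 26.1, 24.4, 26.3 and 27.9 FPKM in young replicates 1 to 4. The ages did not overlap, though old replicate 4 was close to young replicate 4 (log2 fold change 0.32, adjusted p = 0.140 by limma, SE 0.10). Sel1l and Syvn1, which form the core of the ligase, had log2 fold changes of 0.07 and -0.05 (standard errors 0.11 and 0.13), and Selenos 0.01 (standard error 0.14). Derl2, Edem1 and Edem2 lay between 0.11 and 0.24, and Herpud1 at 0.21. None of these genes passed the test in limma (adjusted p-values of 0.140 to 0.972). Derl1 alone among the 9 degradation genes had an unadjusted p under 0.05, as higher (18% of all genes were).

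At the entrance to the ER, 0 of the 5 channel subunits and partners passed the test in limma (2.33% of all genes did). At an unadjusted p under 0.05, 1 of the 5, Sec61g, was higher (18% of all genes were). Sec61a1, the channel itself, was at 24.2 to 29.1 FPKM in old and 20.4 to 28.7 FPKM in young libraries (log2 fold change 0.06, standard error 0.13). Of the small subunits, Sec61b had a log2 fold change of 0.16 (standard error 0.14). Sec61g had 14.5, 14.1, 15.9 and 15.5 FPKM in old and 10.7, 12.4, 13.9 and 13.05 FPKM in young replicates 1 to 4, with every old library above the young ones (log2 fold change 0.26, adjusted p = 0.212 by limma, SE 0.11). Sec62, which serves proteins that enter after synthesis, had 35.2, 37.9, 38.4 and 37.2 FPKM in old and 37.6, 34.8, 39.1 and 42.6 FPKM in young replicates 1 to 4. Its order between the ages depended on the scaling. After median-of-ratios scaling every old library was below every young one, which held for 1 member (2.38%, against 5.75% of all genes), and the log2 fold change was -0.20 (unadjusted p = 0.0195, adjusted p = 0.189 from limma, the lowest over its alternatives, which reached 0.990).

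The translocon-associated protein (TRAP) complex, made of Ssr1 to Ssr4, sits beside the channel and helps certain proteins to enter. The log2 fold changes of its subunits ran from 0.07 to 0.48. Ssr4 had 30.7, 34.4, 37.0 and 31.1 FPKM in old and 20.8, 26.5, 25.1 and 23.3 FPKM in young replicates 1 to 4, without overlap, or 1.39-fold higher in old pituitary by the means. Its log2 fold change of 0.48 (adjusted p = 0.0734 by limma, SE 0.11) was the next in order of p after that of Sil1. Its adjusted p was under the threshold with a pseudocount of 1, a minimum mean of 1 FPKM and a mean-variance trend (0.0416, 0.0389 and 0.0354), and ran up to 0.297 over the alternatives. Ssr1 and Ssr3 had log2 fold changes of 0.07 (standard error 0.12) and 0.08 (standard error 0.13), and Ssr2 of 0.28 (standard error 0.17). The differences between the subunits were not tested. Signal peptidase was measured by its subunits Spcs1 and Spcs2 and its catalytic subunit Sec11c. Sec11c had 13.3, 14.1, 13.1 and 10.1 FPKM in old and 8.47, 11.1, 10.2 and 9.96 FPKM in young replicates 1 to 4, where old replicate 4 lay within the young range (log2 fold change 0.34, adjusted p = 0.216 by limma, SE 0.14). Spcs1 and Spcs2 had log2 fold changes of 0.10 and 0.18 (adjusted p-values of 0.600 and 0.346).

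Without overlap between the ages and before any rescaling, 8 members were higher in old pituitary (Sil1, Pdia3, Txndc5, Xbp1, Derl1, Sec61g, Ssr4 and Spcs2). This is 19.0%, against 13.4% of all genes, and 0 members were lower without overlap (against 2.06%).

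The young libraries lay further apart in these genes than the old ones did, which was not tested. In young replicate 1 all 42 members were below the mean of the other young libraries, by a median of 0.33 on the log2 scale, while the median over all genes was 0.07 below. It held the lowest young value of 38 members (90.5%, against 36.2% of all genes) and the lowest value of all 8 libraries for 37 members (88.1%, against 23.7%). This library was not shallow, with 17192452 fragments. Hormone and ribosomal RNA repeat genes took 52.6% of them, against 52.3, 48.4 and 48.0% in young replicates 2 to 4. After median-of-ratios scaling young replicate 1 held the lowest young value of 26 members (61.9%, against 28.5% of all genes) and the lowest of all 8 libraries for 21 members (50%, against 12.1%). The 4 red blood cell genes also set libraries apart, at a sum of 15.7 FPKM in old replicate 1 and 12.6 and 14.4 FPKM in young replicates 1 and 2, against 75.8 to 123 FPKM in the other 5 libraries, and their part in these values was not tested. Ribosomal RNA repeat genes took 38.1% of old replicate 1 and 39.0 and 40.3% of young replicates 1 and 2. In the other 5 libraries they took 33.8 to 35.8%, and their part was not tested either. In the values of the members, young replicate 2 lay at the other end from young replicate 1. In it, 34 of 42 members were above the mean of the other young libraries, by a median of 0.19, while all genes were 0.11 below. Among the old libraries the medians of the members stayed within -0.07 and 0.11. The highest was in old replicate 3, where all genes were also above the other old libraries, by a median of 0.07. Without young replicate 1 the median log2 fold change was 0.12 over the members and 0.12 over all genes. Then 0 members passed the test, and 133 of 23507 genes did. At an unadjusted p under 0.05 there were 7 members, for which the share over all genes was not computed. With that library left out and median-of-ratios scaling, a combination chosen after seeing the data, the median of the members was -0.0045.

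**Figure D3:**
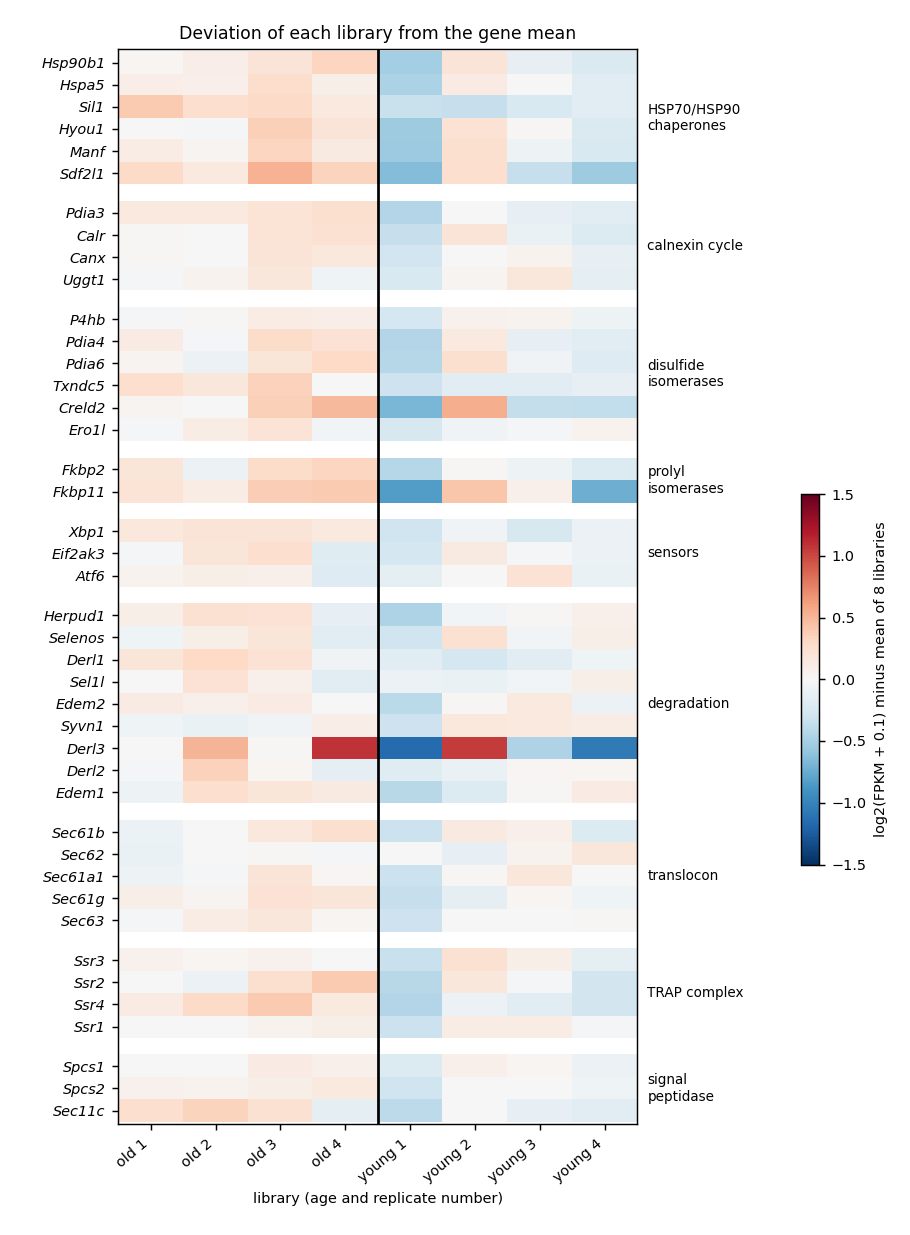
Heat map of log2(FPKM + 0.1) of each member in each library, minus its mean over the 8 libraries, with old libraries left of the black line and young libraries right of it. The column of young replicate 1 is blue for most members, and Derl3, Creld2 and Fkbp11 show strong colours in young replicates 1 and 2.

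The members with the widest spread within an age were Derl3, Fkbp11, Creld2 and Sdf2l1, which were singled out after their values had been seen. Derl3, a Derlin typical of secretory cells, had 4.28, 6.15, 4.35 and 9.20 FPKM in old and 1.87, 8.96, 3.08 and 2.01 FPKM in young replicates 1 to 4. Its SD within an age was 0.805 on the log2 scale, against a median of 0.172 over the members and 0.164 over the 9468 genes tested in the same range of mean FPKM. Creld2 had 31.6, 30.6, 39.4 and 43.1 FPKM in old and 19.1, 44.7, 23.9 and 23.8 FPKM in young replicates 1 to 4. Fkbp11, a prolyl isomerase of the secretory pathway, had 36.6, 34.3, 41.2 and 41.8 FPKM in old and 17.7, 42.7, 33.6 and 19.1 FPKM in young replicates 1 to 4. In these genes old replicate 4 and young replicate 2 were at or near the top of their ages, and young replicate 1 was at the bottom, so that the ages overlapped. Their log2 fold changes, 0.81 for Derl3, 0.54 for Fkbp11 and 0.44 for Creld2, were among the highest of the members and had standard errors of 0.51, 0.29 and 0.27, and none passed the test (adjusted p-values of 0.388, 0.319 and 0.376 from limma).

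The members with an ER stress response element, whose sites are printed above, had larger median deviations in some libraries than the other members. In young replicate 1 the 8 of them were below the other young libraries by a median of 0.45 on the log2 scale, against 0.30 for the other 34 members, of which 8 had no promoter to search. In young replicate 2 they were above by 0.43, against 0.16. In old replicate 4 they were above the other old libraries by 0.20, while the others were 0.03 below. Their SD within an age had a median of 0.208, against 0.155 for the other members. These are descriptions without a test, given after Derl3 and Creld2 had been seen to vary. The element and the spread did not go together in every member. Fkbp11 and Sdf2l1, with SDs of 0.446 and 0.303, had no match in the promoters searched, and Syvn1 and Canx, which carry the element, had SDs of 0.173 and 0.124.

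Plasma cells express much of this machinery too, including Derl3, Fkbp11, Creld2, Sdf2l1, Txndc5 and Xbp1, and their marker genes moved with age. Of the 11 plasma cell markers listed, 7 were tested and 5 rose (Igkc, Igha, Ighm, Jchain and Slamf7). The other tested markers had negative log2 fold changes and did not pass. Sdc1 (CD138), a surface marker that other cells also carry, had 2.01, 2.91, 2.63 and 1.58 FPKM in old and 3.88, 3.09, 3.73 and 3.62 FPKM in young replicates 1 to 4, with every old library below every young one (log2 fold change -0.66, adjusted p = 0.115 by limma, SE 0.19). Prdm1 had a log2 fold change of -0.30 (adjusted p = 0.504 by limma) with overlapping ages. The summed level of the 11 markers was 35.1 to 54.4 FPKM in old and 5.10 to 7.63 FPKM in young libraries. Of the markers below the filter of 0.1 FPKM, Tnfrsf17 was listed at 0 in 3 of the old libraries and in every young one. Mzb1 was at 0 in 1 old library and 3 young ones. The means in old and young pituitary were 0.122 and 0.0151 FPKM for Mzb1 and 0.0381 and 0 FPKM for Tnfrsf17. For Irf4 they were 0.0845 and 0.0313 FPKM, and for Pou2af1 0.0907 and 0.0246 FPKM. The ages overlapped in each of these untested genes. Young replicate 2, highest of the young libraries in Derl3, Fkbp11 and Creld2, had the lowest sum of plasma cell markers, 5.10 FPKM, of which 3.09 FPKM came from Sdc1. The part of plasma cells in the values of Derl3, Fkbp11, Creld2, Sil1, Xbp1 and Txndc5 was not tested. Of 10 macrophage markers, C1qb and Lyz2 rose, with sums of 75.8 to 102 FPKM in old and 35.2 to 59.7 FPKM in young libraries. All 10 had a log2 fold change above 0. At an unadjusted p under 0.05 in limma, 9 were higher (18% of all genes were), and 9 were higher without overlap (13.4% of all genes). Of 6 fibroblast markers, Col1a1 and Col3a1 fell. In limma 3 of the 6 were lower at an unadjusted p under 0.05 (3.79% of all genes were), and 3 were lower without overlap (2.06%). The part of macrophages and fibroblasts was not tested either. By limma, 0 of 5 endothelial markers and 0 of 4 red blood cell genes passed (0 of each at an unadjusted p under 0.05). Of 5 posterior lobe pituicyte markers, 2 were tested and 0 passed in limma (1 lower at an unadjusted p under 0.05).

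**Figure D4:**
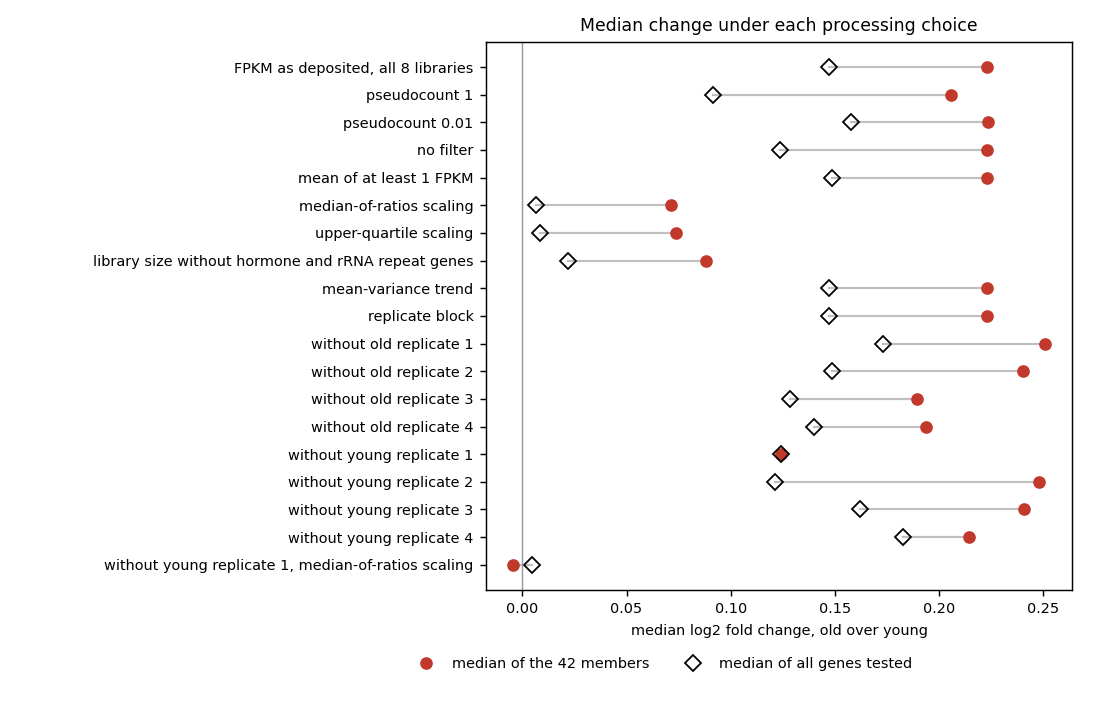
Median log2 fold change, old over young, of the 42 members (filled circles) and of all genes tested (open diamonds) under each processing choice. The members lie at 0.22 with the FPKM as deposited, at 0.07 with median-of-ratios scaling and at 0.12, on top of all genes, without young replicate 1.

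Other genes of the same compartment, 125 in all, were listed beside the members, and 123 were found and 121 tested. Of these, 3 rose and 0 fell (2.33% of all genes were called in either direction), and the median log2 fold change was 0.13, against 0.15 over all genes. The 3 that rose were Nupr1, Trib3 and Sesn2, all from the 10 genes of the integrated stress response, in which PERK and related kinases slow translation and raise ATF4. Nupr1, a small stress-induced chromatin protein, had 3.93, 3.29, 4.42 and 1.34 FPKM in old and 0.393, 0.370, 0.448 and 0.348 FPKM in young replicates 1 to 4, without overlap (log2 fold change 2.65, adjusted p = 0.0181 by limma, SE 0.34), and its lowest library held 14 fragments. Trib3, a pseudokinase induced by ATF4, had 2.28, 2.70, 2.12 and 1.61 FPKM in old and 1.15, 0.970, 0.691 and 1.13 FPKM in young replicates 1 to 4 (log2 fold change 1.07, adjusted p = 0.0440 by limma, SE 0.20). Sesn2, an inhibitor of mTORC1 signalling, had 3.65, 4.31, 5.47 and 3.44 FPKM in old and 2.14, 2.31, 2.41 and 2.55 FPKM in young replicates 1 to 4 (log2 fold change 0.79, adjusted p = 0.0484 by limma, SE 0.16). With median-of-ratios scaling Nupr1 alone passed, and over the alternatives the adjusted p ran from 0.00103 to 0.125 for Nupr1, from 0.0221 to 0.161 for Trib3 and from 0.0245 to 0.158 for Sesn2.
Of the 7 other genes of this response, 6 had a log2 fold change above 0 and 1, Atf3, below 0, and none of the 7 passed the test in limma. Atf4 itself stood at 41.8, 40.7, 50.9 and 37.5 FPKM in old and 35.6, 36.7, 40.5 and 43.0 FPKM in young replicates 1 to 4, with overlapping ages (log2 fold change 0.13, adjusted p = 0.577 by limma, SE 0.12). Atf3, an early stress gene, had 4.79, 4.75, 6.02 and 10.9 FPKM in old and 21.4, 18.0, 15.3 and 12.9 FPKM in young replicates 1 to 4, with every old library below every young one (log2 fold change -1.40, adjusted p = 0.0543 by limma, SE 0.29). Under some alternatives Atf3 did pass, as lower in old pituitary. These were a pseudocount of 1, a minimum mean of 1 FPKM, a mean-variance trend and leaving out old replicate 4. Ern1, the sensor that splices Xbp1, had a log2 fold change of 0.19 (adjusted p = 0.502, SE 0.15). In the groups of other disulfide enzymes, prolyl isomerases, oligosaccharyl transferase, glycan trimming, degradation, signal recognition, export and other sensors, 0 genes passed the test in limma, and medians ran from 0.07 to 0.23. At an unadjusted p under 0.05, 19 of the 104 genes tested in these groups were higher (18.3%, against 18% of all genes) and 0 were lower (against 3.79%). The 7 chaperone co-factors had a median of -0.12, and 0 of them had an unadjusted p under 0.05.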

How the data were processed

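Poly(A) RNA of perfused pituitaries was sequenced on a HiSeq instrument. The authors aligned reads to GRCm38 with STAR (2.6.1a), counted fragments per Ensembl gene with featureCounts and deposited FPKM computed with edgeR (3.28.1), 1 list per library. For the annotation release and the strand setting: not given in the sources used here. Of the 42 members, 15 share exon bases with another annotated gene, 14 of them with one on the opposite strand, so their values are less certain. Symbols were matched as written.

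Old and young libraries (4 each) were compared with limma (3.58.1, R 4.3.3) on log2(FPKM + 0.1), without trend or robust options, over genes averaging 0.1 FPKM or more, with Benjamini-Hochberg adjustment. The deposited FPKM, not counts, entered the test. Fold changes are on the log2(FPKM + 0.1) scale, which understates those of low genes. Where p-values are given, they measure the spread between these libraries, which may in part be technical. The fit was also run on simulated counts with the same dispersion for every gene and no shifts of whole libraries. Such a run cannot test the fit under shifts like those of young replicate 1.

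Library totals were computed back from low FPKM with GENCODE exon lengths, where 93.6 to 94.2% of values gave whole fragments within 0.01. A floor of 3 fragments corresponds to 0.147 to 0.199 CPM and covers counting error only. No libraries of an age were duplicates.

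Values in every library are given for members that passed the test, for the member with the smallest p in each role and for the 5 with the highest mean FPKM, and, of the other genes of the compartment, for at most 3 per group that passed. Derl3, Creld2, Fkbp11, Sdf2l1, Sec62, Atf3 and Atf4 were added after their values were seen. The members and gene lists were chosen with earlier results of these data known. Alternatives changed the pseudocount, filter, scaling, variance model and libraries.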

Additional observations from a re-analysis of the deposited data

Results flagged for a closer look

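In 84 groups of 4 libraries (42 members, old and young), 5 had 1 library far from the other 3, by a gap that took most of the group's range (Dixon's ratio), which chance gives in about 1 of 20 groups. Hspa5 was highest in old replicate 3, at 207 FPKM, with the others at 182 to 185 FPKM. Atf6 was lowest in old replicate 4, at 6.08 FPKM, with the others at 7.22 to 7.39 FPKM. Derl3 was highest in young replicate 2, at 8.96 FPKM, with the others at 1.87 to 3.08 FPKM. In young replicate 1, Syvn1 was lowest at 8.02 FPKM (others 10.8 to 11.2 FPKM) and Sec63 was lowest at 8.79 FPKM (others 10.8 to 11.1 FPKM).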

How the results depend on the processing

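Of 547 genes called over all genes, 436 were higher and 111 lower. The count was 827 with a pseudocount of 1, 919 with a minimum mean of 1 FPKM, 844 with a mean-variance trend and 343 with no filter. The split was 211 higher and 220 lower with median-of-ratios scaling, 213 and 217 with upper-quartile scaling, and 212 and 189 with hormone and ribosomal RNA repeat genes left out of the library size. Of the members, 3 (Sil1, Ssr4 and Xbp1) were called with a pseudocount of 1, a minimum mean of 1 FPKM or the trend, and 0 with no filter (10 at an unadjusted p under 0.05) or with the 3 scalings (3, 3 and 6). Of the other genes of the compartment, 6 were called with a pseudocount of 1 or a minimum mean of 1 FPKM (5 higher and 1, Atf3, lower in each). With the trend 7 were called (6 higher and 1, Atf3, lower), and 1 with a pseudocount of 0.01, no filter or each scaling. The median log2 fold change of the members was 0.0715, 0.0738 and 0.0882 under the 3 scalings, and that of P4hb was -0.0465, -0.0442 and -0.0299. Leaving out 1 library at a time gave 97 to 490 genes called over all genes, 0 to 1 members, 0 to 3 other genes of the compartment and a median of 0.12 to 0.25 over the members. The lowest count over all genes was without old replicate 2 and the 1 member was Sdf2l1, without young replicate 2. Leaving out young replicate 1 with median-of-ratios scaling, added after seeing the data, gave 179 genes, 0 members (3 at an unadjusted p under 0.05), 0 other genes, a median of -0.0045 and -0.0940 for P4hb. With the replicate number as a block, 4 genes, 0 members (6 at an unadjusted p under 0.05) and 0 other genes were called. The labels do not say that a number pairs libraries, and same-numbered libraries had correlations of 0.057, -0.088, 0.009 and -0.028 in their deviations from the age means. Beyond the fewer libraries or genes in a fit, the cause of these changes was not tested. With 4 libraries per age, the median log2 fold change of the members, 0.22, was close to their median SD within an age, 0.172. Single members differed in this, from Sil1 (0.53 against an SD of 0.0944) to Derl3 (0.81 against 0.805).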
